A study of Mus musculus with 19 samples.

Results

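Wild-type neural progenitor cells were sequenced by 2 library protocols, and the 2 sets of libraries are compared here gene by gene and transcript by transcript. The members are 7 of the 19 samples of the series, chosen by their labels: 4 ladder libraries (WT1 to WT4) and 3 standard libraries (NPC_rep1 to NPC_rep3). Both groups are labelled wild type. They came from cortices of mouse embryos in a study of Mettl14 wild-type and conditional knockout cells, and were grown on Matrigel-coated dishes in Neurobasal medium with FGF2, EGF, heparin, B27, Glutamax and Penicillin/Streptomycin. No age or strain is given. In both groups total RNA was taken up in Trizol, mRNA was bound on Dynabeads, and libraries were made with the NEBNext Ultra II RNA kit. In the ladder libraries the mRNA was first separated by length into 7 bands, each with its own index, and about 100 M paired reads of 75 bases were made per sample. The standard libraries were not separated by length, and about 30 M single reads of 50 bases were made on another sequencer. Protocol, read mode, sequencer and target set therefore differ together between the groups and cannot be told apart. The labels do not say whether both groups came from the same cultures.

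Ladder-seq is a way of keeping the length of an mRNA molecule as information that short reads lose. RNA is run through a gel matrix, which short molecules cross faster than long ones, is cut into bands, and each band is sequenced under its own barcode, so that a read can be assigned to transcripts of the right length. Neural progenitor cells are the cycling radial glia of the embryonic cortex. In culture they are kept dividing by FGF2 and EGF, and they can form neurons, astrocytes and oligodendrocytes.

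The ladder files summed to between 103.8 and 126.9 M estimated counts and the standard files to between 12.1 and 14.0 M (M, 1000000). The ladder files list 150173 targets, of which 11338 are transcripts assembled by the authors, and the standard files list 116067, 107368 and 116067. Only the 105848 annotated targets listed in all 7 files, from 34030 genes, were compared. They held 73.8% to 79.1% of the counts of the ladder libraries and 96.8% to 99.4% of those of the standard libraries. A value given below as CPM is the count per 1000000 counts on shared targets, after scaling by the trimmed mean of M values (TMM). An unscaled CPM is the same count without the TMM factor, used for sums over genes. The share of a gene's ladder counts outside the shared set covers annotated transcripts only, because assembled targets were not assigned to genes. A difference is the fitted log2 ratio of ladder to standard with its standard error (SE). Nothing in the labels says that the libraries of a group came from separate cultures, so the p-values measure the spread between these libraries.

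Standard replicate 1 stood apart from the other standard libraries. Across genes, log2 CPM of standard replicate 1 correlated with replicates 2 and 3 at Pearson's r of 0.929 and 0.924, against 0.967 between replicates 2 and 3 and 0.986 to 0.992 among the ladder libraries. Pairs of 1 ladder and 1 standard library lay between 0.812 and 0.848. Results that rest on standard replicate 1 are given with and without it. Since these are bulk samples, fewer cells of a type and less RNA per cell cannot be told apart.

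Of 16131 genes tested, 4967 (30.8%) were higher in the ladder libraries and 4895 (30.3%) were lower at an adjusted p under 0.05, which is 61.1% of the genes in either direction. The median difference over all genes was 0.00 on the log2 scale of counts. Genes induced by interferon stood far apart, with levels near 0 in the standard libraries for most of them. Nuclear genes of the respiratory chain and most genes for ribosomal proteins were also higher in the ladder libraries, and the genes of the mitochondrial genome and most replication-dependent histone genes were lower. Without standard replicate 1, 5561 of 16612 genes (33.5%) were higher and 5235 (31.5%) lower.

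Type I interferon acts through a receptor that activates transcription factors. With Irf9 these bind a short element, repeated GAAA blocks with a pair of bases between them, in the promoters of the genes they switch on. The promoters of 5 of the genes with large differences are shown because the same element stands in each. They are taken from RefSeq on GRCm38.p6, 60 bases each, read 5′ to 3′ on the gene's strand, with matches in capitals to GAAA, any 2 bases and GAAA, on either strand (overlapping matches run together).
Isg15, chr4:156200852-156200911, minus strand, from 93 to 34 bases before the start: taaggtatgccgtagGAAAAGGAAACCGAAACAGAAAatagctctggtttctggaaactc
Ifit3, chr19:34583358-34583417, plus strand, from 171 to 112 bases before the start, matches on the opposite strand: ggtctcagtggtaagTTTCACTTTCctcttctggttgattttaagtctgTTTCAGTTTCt
Bst2, chr8:71537558-71537617, minus strand, from 145 to 86 bases before the start: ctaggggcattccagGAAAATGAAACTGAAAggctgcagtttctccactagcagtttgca
Oas1a, chr5:120907501-120907560, minus strand, from 35 bases before to 24 bases after the start: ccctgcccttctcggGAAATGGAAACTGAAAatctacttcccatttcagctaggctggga
Tgtp2, chr11:49064238-49064297, minus strand, from 85 to 26 bases before the start: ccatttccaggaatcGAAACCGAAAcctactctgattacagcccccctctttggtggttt
The element was found in 1131 of 32851 promoter windows of the same table (3.44%), which run from 250 bases before to 50 bases after each start. Of the 14 interferon-stimulated genes listed, 10 had a window and 8 of these held the element in at least 1 window. Of the 10 protein-coding genes with the largest rises, 7 had a window and 6 held it in at least 1. These counts are per gene over all its windows, whereas the share of 3.44% is per window. A match is a description of the letters and not evidence of binding.

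All 14 interferon-stimulated genes of the list were higher in the ladder libraries and none was lower, with a median difference of 7.86 against 0.00 over all genes. Their libraries did not overlap in any of the 14, where 32.2% of all genes were higher without overlap. On the scale of log2(TPM + 1) 13 of the 14 were called higher. Summed over the list without TMM scaling, they took 4121, 4373, 4663 and 4477 CPM in the ladder libraries and 60.2, 63.3 and 80.2 in the standard libraries (4408 ± 226, SD, n = 4, against 67.9 ± 10.8, SD, n = 3). This sum gave p = 0.0286 in an exact two-sided permutation test, the smallest that 4 against 3 libraries allow. The 4 knockout ladder libraries of the series, made by the same protocol, had sums of 5575 to 6892.

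The secreted ubiquitin-like protein Isg15 stood at 492, 505, 619 and 502 CPM in the ladder libraries and at 0.237, 0.251 and 0.258 CPM in the standard libraries, a log2 difference of 11.04 (SE 0.22, adjusted p = 2e-07). Usp18, the protease that removes Isg15 from its targets, was at 198, 201, 227 and 207 CPM against 0.474, 0.502 and 0.580 CPM, a difference of 8.64 (SE 0.17, adjusted p = 2e-07). In both genes each ladder library was above every standard library, and the standard libraries lay within a narrow band. Ifit3, which lies at chr19:34583531-34588731 on the plus strand and encodes a protein that binds foreign RNA together with Ifit1, had 467, 501, 535 and 507 CPM against 0.0790, 0.0627 and 0. Only 2 counts fell on it in the standard libraries together, which gives a ratio of 11116 with a 95% counting interval of 3077 to 91790.1. Of the 31-base words of its leading transcript, 61.8% also occur in Ifit3b, so reads may be split between those genes.

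Irf7, a transcription factor that amplifies interferon production, had 232, 222, 274 and 251 CPM in the ladder libraries against 0.553, 0.439 and 0.258 in the standard libraries. It was thus present in each standard library, at under 1 CPM. The RNA sensors that start the response were higher by less: Ddx58 (RIG-I) had 103, 106, 60 and 75.8 CPM against 9.41, 3.76 and 5.35, and Ifih1 (MDA5) had 68.1, 63.4, 41.2 and 48.5 CPM against 1.58, 0.940 and 2.45.

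The effectors differed widely in size. The membrane protein Bst2 (tetherin), which holds budding virus at the cell surface, had 699, 742, 920.1 and 776 CPM against 3.40, 4.26 and 9.54. Oasl2, an OAS-like protein, had 384, 350.1, 527 and 457 CPM against 0.0790, 0.188 and 0.516. Mx1 had the smallest difference of the list, with 9.03, 7.31, 5.28 and 7.41 CPM against 2.45, 5.08 and 3.22 (log2 difference 1.01, adjusted p = 0.0208). Its lowest ladder library and highest standard library were close to each other. The genes described here as Oasl2, Irf7, Bst2, Ddx58, Ifih1 and Mx1 were picked from the list after their values were seen.

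**Figure D1:**
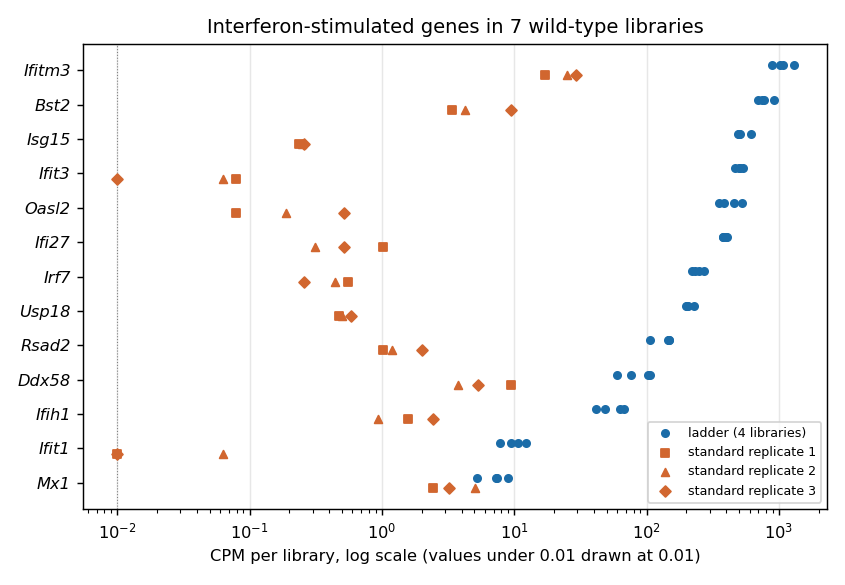
CPM on a logarithmic axis of 13 of the 14 interferon-stimulated genes in each library, blue dots for the 4 ladder libraries and orange marks (square, triangle and diamond for replicates 1, 2 and 3) for the standard libraries; values under 0.01 CPM are drawn at 0.01. The groups do not overlap in any gene drawn, and the distance between them is smallest for Mx1 (5.28 to 9.03 against 2.45 to 5.08 CPM).

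Genes that interferon can induce made up most of the largest rises over all protein-coding genes. Of the 10 largest, Oas1a, Oas1g and Oas2 are 2′-5′-oligoadenylate synthetases, which activate RNase L on sensing double-stranded RNA, Tgtp1 and Tgtp2 are interferon-inducible GTPases, and Zbp1 is a sensor of Z-form nucleic acid. Oas1a, at chr5:120896256-120907521 on the minus strand, had 75.6, 81.3, 70.3 and 64.0 CPM and no count in the 3 standard libraries. Measured against a floor of 3 counts over the standard group, or 0.0680 CPM, it was at least 1070.3-fold higher in the ladder libraries. Tgtp2 (28.1, 34.8, 23.3 and 14.6 CPM), Oas1g (20.2, 22.5, 19 and 18.5 CPM), Tgtp1, Oas2 and Zbp1 were also without a count in the standard libraries, and were at least 371-fold, 295-fold, 176-fold, 167-fold and 139-fold higher. These genes have close copies: 68.8% of the 31-base words of Oas1a occur elsewhere, nearly all in Oas1g, and 94.7% of those of Tgtp2, mostly in Tgtp1. Summed, Oas1a and Oas1g had 84.6 unscaled CPM in the ladder libraries and 0 in the standard libraries, and Tgtp1 and Tgtp2 had 33.9 against 0. Ifi27l2a, an interferon-inducible mitochondrial protein, had 382, 421, 623 and 475 CPM against 0.0790, 0.0627 and 0, a ratio of 10576.

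Among the 10 largest rises, Exosc6, a subunit of the RNA exosome, is a different kind of case. It had 45.2, 49.8, 38.9 and 37.4 CPM in the ladder libraries and no count in the standard libraries. All of the 1296 31-base words of its transcript also lie in Aars, the alanyl-tRNA synthetase gene. Aars had 345 unscaled CPM in the ladder and 309.7 in the standard libraries, and the sums of both genes were 384 ± 64.0 (SD, n = 4) and 309.7 ± 18 (SD, n = 3).

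Gene length and the difference between the protocols were related across genes. The median log2 difference was 1.62 over the 1308 genes of 500 to 1000 bases, 0.71 over the 3611 genes of 1000 to 2000 bases and −0.03 over the 6403 genes of 2000 to 4000 bases. It was −0.51 over the 2819 genes of 4000 to 6000 bases, −0.62 over the 1376 genes of 6000 to 10000 bases and −1.71 over the 225 genes above 10000 bases. The length of a gene is the mean length of its shared transcripts, weighted by counts. Of the genes of 500 to 1000 bases 60.6% were higher and 12.9% lower, and of those above 10000 bases 6.22% were higher and 75.1% lower. Spearman's rho between length and the log2 difference across the 16131 genes was −0.41, given as a description because genes share libraries. In the authors' TPM values, which are divided by effective length, the order of the bins was the same above 500 bases, and the median of all genes lay at −0.52 on the scale of log2(TPM + 1). TPM called 2468 genes (15.3%) higher and 8417 (52.2%) lower in limma, so counts of higher and lower genes depend on this scale. Beside a gene list whose median changed sign in TPM, the TPM values are given below.

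**Figure D2:**
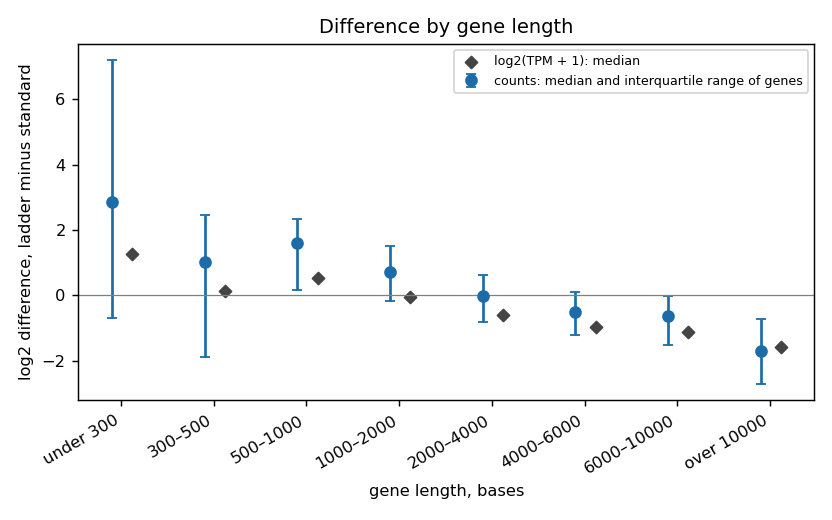
Median log2 difference (ladder minus standard) of genes by length bin, with the interquartile range of the genes as bars for counts, and diamonds for the median from log2(TPM + 1). The median from counts is above 0 in the bins below 2000 bases and below 0 in those above 2000 bases, down to −1.71 above 10000 bases.

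The counts themselves were distributed over lengths in the same way. Transcripts of 500 to 1000 bases held 18.9% ± 1.27 of the counts on shared targets in the ladder libraries (SD, n = 4) and 10.3% ± 0.276 in the standard libraries (SD, n = 3). Those of 1000 to 2000 bases held 26.8% ± 1.05 against 17.9% ± 0.717. Transcripts above 10000 bases held 0.716% ± 0.139 against 2.53% ± 0.163. For these 3 bins and the 3 between 2000 and 10000 bases the exact permutation test gave an adjusted p of 0.0381, and for the 2 bins under 500 bases 0.0571. In these 2 bins, too, each ladder share was above every standard share (0.0584% to 0.118% against 0.0425% to 0.0478% for those under 300 bases).

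The 24 nuclear genes for respiratory chain subunits, which encode short proteins of the inner mitochondrial membrane for the most part, were all higher in the ladder libraries, with a median difference of 2.70. Their groups overlapped only in Cox7c, a subunit of complex IV (119, 148, 220 and 184 CPM against 125, 101 and 112). Sdhb, the iron-sulfur subunit of complex II, had 684, 688, 626 and 617 CPM against 110.2, 91.4 and 92.5, a difference of 2.74 (SE 0.13, adjusted p = 3.3e-06). Ndufv1, a subunit of complex I, had 292, 294, 291 and 269 CPM against 81.8, 70.5 and 75.4 (1.92). All ladder libraries were more than 3 times above the standard libraries in both genes. With an offset for gene length fitted in each library, where 27.7% of all genes were higher and 30.1% lower, 18 of the 24 were higher and 2 lower, with a median of 1.12.

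Genes of the cytosolic ribosome followed the respiratory chain. Of 84 listed, 81 were tested, of which 65 were higher and 11 lower, with a median difference of 2.00 (0.39 with the length offset, where 45 were higher and 18 lower). Together they held 96971 ± 9818 unscaled CPM in the ladder libraries (SD, n = 4) and 32744 ± 4387 in the standard libraries (SD, n = 3). Rpl7a, of the large subunit, had 2476, 2489, 2803 and 2535 CPM against 569, 637 and 616 (2.08), and Rpsa, of the small subunit, had 3992, 4117, 3609 and 3633 CPM against 1069, 1109 and 1031 (1.84). Rpl3 went the other way, with 17.9, 19.9, 20.4 and 19.4 CPM against 603, 727 and 923, a difference of −5.27 (SE 0.18). Of its 31-base words 87.6% occur in other genes, mostly Rpl3-ps1, and with that pseudogene the sums were 328 ± 322 (SD, n = 4) against 1093 ± 155 unscaled CPM (SD, n = 3). In 63 of the 84 genes more than 50% of the 31-base words lie in other genes, so single members are uncertain.

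Of 16 genes for proteasome subunits 14 were higher and 1 was lower, with a median difference of 1.06 (0.42 with the length offset, 8 higher and 3 lower). Psmb4, of the core particle, had 595, 582, 546 and 535 CPM against 117, 116 and 129 (2.22), and Psmb5, which carries the chymotrypsin-like activity, had 303, 279.7, 319 and 287 against 64.7, 71.6 and 77.5 (2.06). Psmd11, of the regulatory lid, was lower, with 94.7, 93.5, 99.0 and 101 CPM against 130.2, 115 and 122 (−0.34). Its adjusted p was 0.0680 without standard replicate 1 and 0.0601 without standard replicate 3. Of the 31-base words of Psmb5 74.0% lie in other genes, mostly Gm3375, and with that gene the sums were 270 against 80.9 unscaled CPM.

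At the other end of the length scale, 15 of 20 giant coding genes were lower and 1 was higher, with a median difference of −1.30. Kmt2a, a histone H3 lysine methyltransferase, had 7.00, 11.5, 7.44 and 6.59 CPM against 95.6, 81.6 and 77.1 (−3.38), and Mycbp2, a large ubiquitin ligase of axons, had 26.5, 22, 18.4 and 15.9 CPM against 114, 119 and 119 (−2.50). Neither gene overlapped between the groups. Lrp1, an endocytic receptor for apolipoprotein E, was the exception, with 199, 227, 188 and 143 CPM against 154, 104 and 121 (0.58, adjusted p = 0.0324), and its groups did overlap. Without ladder replicate 1, 2 or 3, or standard replicate 2 or 3, its adjusted p was between 0.0735 and 0.111, and on the scale of log2(TPM + 1) its difference was −0.22 (adjusted p = 0.226). With the length offset 8 of the 20 were higher and 5 lower, with a median of 0.32. Plec and Syne1, chosen after their values were seen, were high in standard replicate 1 alone, with 60.8, 5.27 and 7.86 CPM and 77.1, 10.3 and 15.2 CPM in the standard libraries.

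Short length did not go with a higher value in every group. The mitochondrial genome carries 13 genes for respiratory chain proteins, most of whose RNAs have short poly(A) tails. Of these 12 were lower in the ladder libraries, all without overlap (29.8% of all genes were lower without overlap), and none was called higher. The median difference was −5.43. Their unscaled sums were 499, 519, 394 and 402 CPM in the ladder libraries and 22857, 20424 and 20211 in the standard libraries (exact permutation p = 0.0286). No ladder library came near a standard library.

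mt-Nd4, a membrane subunit of complex I, had 30.5, 27.0, 29.9 and 30.2 CPM against 1273, 1289.9 and 1243, a difference of −5.43 (SE 0.11, adjusted p = 2e-07). mt-Co1, the catalytic subunit of cytochrome c oxidase, had 184, 200.2, 159 and 152 CPM against 5494, 5068 and 4401 (−4.84). mt-Nd4l, which lies beside mt-Nd4, had 3.94, 3.93, 3.47 and 3.72 CPM against 161, 168 and 140.4 (−5.38). The one gene that was not called was mt-Atp8, a small ATP synthase subunit, with 8.86, 12.1, 7.89 and 8.25 CPM against 7.83, 6.39 and 5.80 (0.48, adjusted p = 0.0907).

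More than 50% of the 31-base words of 7 of the 13 mitochondrial genes also occur in nuclear copies. The 7 nuclear copy genes among the shared targets held 211, 119, 81.7 and 84.9 unscaled CPM in the ladder libraries and 1978, 1228 and 204 in the standard libraries, which overlapped (exact permutation p = 0.0571). Together with the mitochondrial genes the means were 578 against 22301 (exact permutation p = 0.0286). Targets for mitochondrial rRNA, which only the ladder files hold, took 0.0304% to 0.0525% of the ladder counts. Respiratory chain genes of the nucleus and of the mitochondrial genome thus stood on opposite sides: 24 of 24 were higher and 12 of 13 lower.

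**Figure D3:**
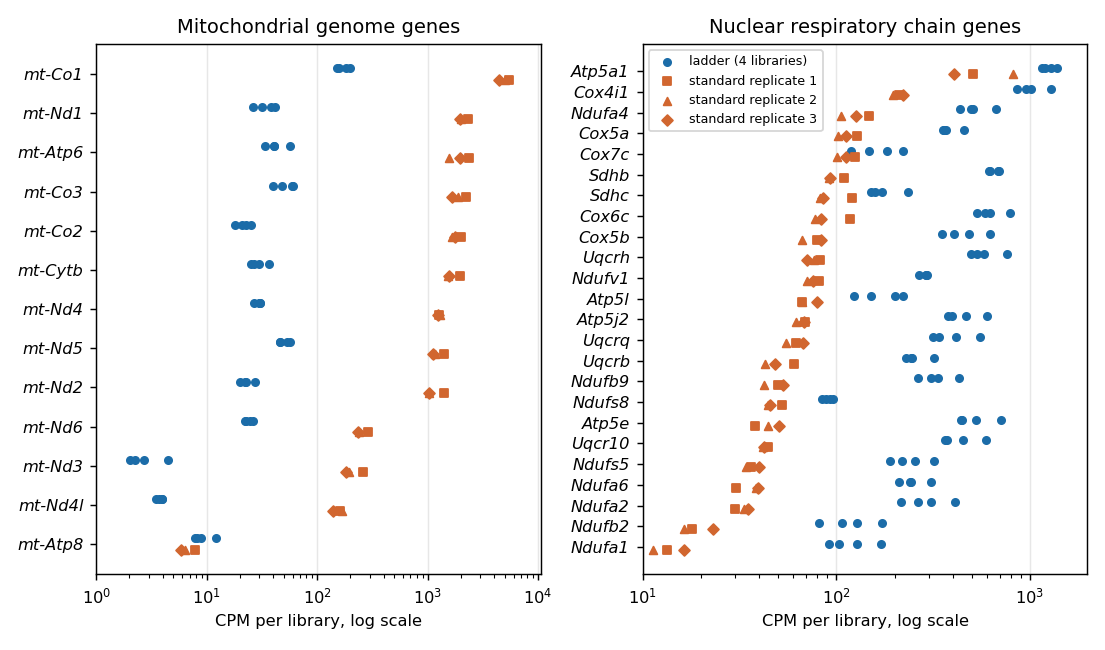
CPM on a logarithmic axis in each library for the 13 genes of the mitochondrial genome (left) and 24 nuclear genes of the respiratory chain (right). The ladder libraries lie below the standard libraries in 12 of the 13 mitochondrial genes and above them in 23 of the 24 nuclear genes.

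Replication-dependent histone mRNAs are made in S phase and end in a stem-loop in place of a poly(A) tail. Of 68 such genes 64 were tested, of which 50 were lower and 5 higher, with a median difference of −3.30. Their unscaled sum was 441 ± 50.8 CPM in the ladder libraries (SD, n = 4) and 953 ± 82.0 in the standard libraries (SD, n = 3). The stem-loop is printed for 3 of them because it stands in genes on both sides, at different distances from the annotated transcript end, with the matched letters in capitals (GG, any 2 bases, CTTTTCAG, any base and GCC). It was searched on the sense strand of the shared GENCODE M21 transcripts, from which the letters are taken.
Hist1h1e: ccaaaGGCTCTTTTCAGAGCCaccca
Hist1h1d: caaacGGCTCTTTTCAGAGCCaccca
Hist3h2ba: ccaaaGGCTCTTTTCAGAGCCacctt
The transcript of Hist1h1e goes on for 1153 bases after the stem-loop, that of Hist1h1d for 4884 bases and that of Hist3h2ba for 169 bases. The motif was found in 31 of the 64 tested histone genes, in 25 of the 50 that were lower, 3 of the 5 that were higher and 3 of the 9 that were not called, and in 35 of all 105848 shared transcripts (0.0331%).

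The falls of smallest p were those of 2 linker histone genes. Hist1h1e had 0.384, 0.403, 0.345 and 0.350 CPM in the ladder libraries against 42.3, 40.5 and 33.0 CPM in the standard libraries (−6.69). Hist1h1d had 0.270, 0.450, 0.380 and 0.311 CPM against 19, 27.4 and 15 (−5.84). Both were below 1 CPM in each ladder library and above 10 CPM in each standard library. The other 3 linker genes tested were not called lower: Hist1h1c was higher (1.02), and Hist1h1a (−0.048) and Hist1h1b (−0.61) were not called. Hist1h2bc and Hist3h2ba, for variants of histone H2B, were the rises of smallest p, with 155, 150.5, 165 and 149 CPM against 13.4, 14.0 and 5.41 (3.82) and with 77.1, 74.0, 103 and 85.0 CPM against 5.06, 8.59 and 13.1 (3.24). In 41 of the 68 histone genes more than 50% of the 31-base words lie in other genes.

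The label of both groups is neural progenitor cells. Defining genes of radial glia were present in each library: Sox2, a transcription factor that maintains progenitors, had 108, 73.1, 55.8 and 82.9 CPM against 191, 167 and 151 (−1.08, adjusted p = 0.003), and Nes, for the intermediate filament nestin, had 264, 194, 204 and 305 CPM against 1025, 828 and 948 (−1.95, SE 0.18, adjusted p = 5.6e-05). Neither overlapped between the groups. Of 20 radial glia genes 7 were higher and 6 lower, with a median of 0.16, near the median of all genes (8 higher and 7 lower without standard replicate 1, and 4 higher and 12 lower in TPM, with a median of −0.69). The fatty acid binding proteins were the largest rises, Fabp5 with 3397, 4314, 5033 and 4220.3 CPM against 327, 272 and 225 (3.95, SE 0.21) and Fabp7, also known as brain lipid binding protein, with 5442, 5959, 5734 and 5502 CPM against 1189.8, 741 and 912 (2.58). Tnc, an extracellular matrix protein of outer radial glia, was lower with Nes, at 318, 441, 343 and 228 CPM against 1767, 1095 and 944 (−1.93).

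Mettl14, the gene deleted in the study's other genotype and a core subunit of the enzyme complex that methylates adenosine in mRNA (m6A), was present in all 7 libraries. It had 35.2, 29.1, 42.0 and 38.7 CPM in the ladder libraries and 31.6, 30.3 and 31.6 CPM in the standard libraries, with a difference of 0.22 (SE 0.14, adjusted p = 0.23). On the scale of log2(TPM + 1) the difference was −0.68 (adjusted p = 0.0024), close to the shift of all genes on that scale. Of the 9 genes of the complex and its kin 6 were lower and none was higher, where 30.3% of all genes were lower. Their median length was 5493 bases, and 47.0% of all genes of 4000 to 6000 bases were lower. With the length offset 5 of the 9 were lower and 1 higher. Wtap, the adaptor subunit, had 54.4, 59.1, 65.6 and 61.0 CPM against 224, 297 and 206 (−2.01), and Cbll1, its partner HAKAI, had 11.4, 12.9, 10.7 and 12.5 CPM against 34.5, 30.4 and 29.2 (−1.40). Zc3h13, chosen after its values were seen, had a difference of −3.84 with 84% of its ladder counts on transcripts that are not in the shared set, so its value on shared targets leaves most of the gene out.

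Markers of astrocytes were higher in 9 of 14 genes and lower in 3, with a median difference of 2.18 (10 and 4 without standard replicate 1). Their unscaled sums were 7794 ± 105 CPM in the ladder libraries (SD, n = 4) and 1412 ± 161 in the standard libraries (SD, n = 3). Apoe, the lipid carrier of astrocytes, made up most of the ladder sum, with 5159.8, 5463, 4726 and 4765 CPM against 45.2, 29.8 and 70.7, a difference of 6.69 (SE 0.35, adjusted p = 4.6e-06). Sparcl1, a secreted protein that promotes synapse formation, had 1643, 1288, 2113 and 1891 CPM against 183, 188 and 183 (3.23). Gfap, the intermediate filament that defines astrocytes, had 134, 119, 159 and 144 CPM against 2.13, 2.63 and 24.0 (3.85, SE 0.84), and the water channel Aqp4 had 15.5, 16.5, 13.0 and 10.5 CPM against 1.42, 2.13 and 3.55 (2.54). The groups overlapped in none of these 4 genes, and standard replicate 3 was the nearest to the ladder libraries in 3 of them.

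Other astrocyte genes pointed the opposite way. Nfia, a transcription factor that starts gliogenesis, had 53.7, 59.4, 45.5 and 36.2 CPM against 297, 338 and 313 (−2.70). Gja1, the gap junction protein connexin 43, had 32.1, 23.4, 30.4 and 34.8 CPM against 83.1, 81.6 and 82.1 (−1.45). The list therefore does not move as a block, although its sum did not overlap between the groups.

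Markers of the oligodendrocyte lineage were higher in 6 of 14 genes and lower in 1, with a median of 0.43, where 30.8% of all genes were higher and 30.3% lower. Without standard replicate 1 they were higher in 8 and lower in 3, with a median of 1.31, and in TPM higher in 5 and lower in 3, with a median of −0.055. The lineage factors Olig1 and Olig2 did not pass the test: Olig1 had 1121, 882, 1386 and 1309 CPM against 824, 956 and 890.5 (0.40, adjusted p = 0.072) and Olig2 had 605, 373, 806 and 744 CPM against 644, 645 and 626 (−0.01, adjusted p = 0.96). Ladder replicate 2 was the lowest of the ladder libraries in both. Cnp, an enzyme of myelin membranes, had 182, 161, 215 and 201 CPM against 46.8, 37.1 and 32.9 (2.29), and Sox10 had 10.6, 8.87, 13.3 and 9.25 CPM against 2.29, 2.82 and 1.61 (2.23).

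Neuronal genes were lower in 15 of the 18 tested of 20 listed and higher in 1, with a median of −2.96. Of all genes 30.3% were lower and 30.8% higher. The ladder libraries lay wholly below the standard libraries in 9 of the 18 genes and wholly above them in 2. Of all genes 29.8% and 32.2% did so. Without standard replicate 1, 20 were tested, of which 18 were lower and 2 higher. Unscaled, they summed to between 413 and 573 CPM in the ladder libraries and to 1089, 2277 and 2986 in the standard libraries, the lowest value being that of standard replicate 1. The synaptic vesicle protein Syt1 had 4.42, 4.16, 3.64 and 4.14 CPM against 32.0, 46.4 and 68.6 (−3.58), and the RNA-binding protein Elavl4 had 24.6, 26.7, 21.3 and 30.9 CPM against 70.7, 69.9 and 79.2 (−1.50). Both were lower in all ladder libraries than in any standard library.

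In several neuronal genes standard replicate 1 was apart from the other standard libraries. Dcx, the microtubule protein of migrating neurons, had 14.7, 17.6, 13.6 and 9.97 CPM in the ladder libraries and 8.69, 256 and 340.5 CPM in the standard libraries (−3.85, adjusted p = 0.0073, and −4.39 without standard replicate 1). Tubb3, the neuronal beta-tubulin, had 32.4, 32.9, 37.7 and 32.4 CPM against 7.19, 175 and 295 (−2.23, adjusted p = 0.051, and −2.77 with an adjusted p of 7.57e-06 without standard replicate 1). Stmn2, chosen after its values were seen, had 0.118 to 0.202 CPM in the ladder libraries and 0.0790, 145 and 219 CPM in the standard libraries. In these 3 genes standard replicate 1 lay below every ladder library and the other standard libraries far above. Gad1, which makes GABA, was the gene called higher, with 14.6, 14.8, 12.4 and 15.7 CPM against 3.64, 7.46 and 5.03 (1.41). On the TPM scale its adjusted p was 0.082.

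**Figure D4:**
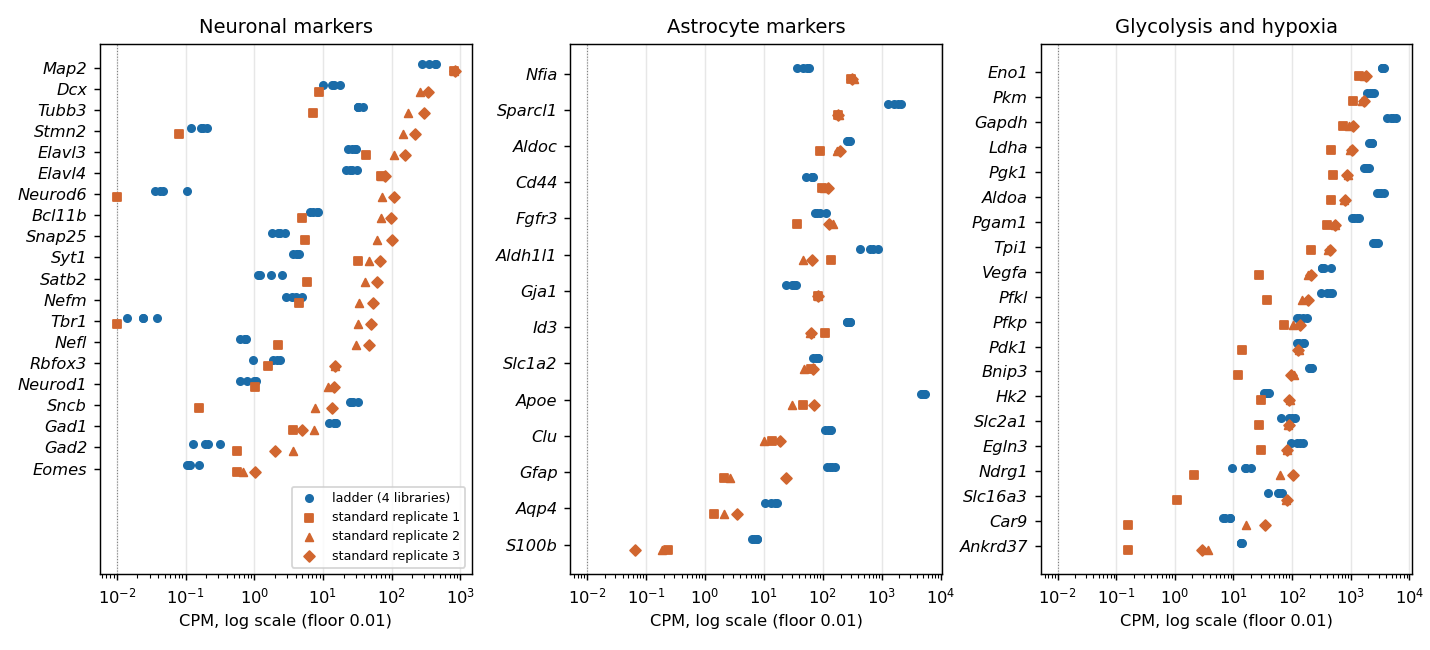
CPM on a logarithmic axis in each library for neuronal markers, astrocyte markers and genes of glycolysis and hypoxia; values under 0.01 CPM are drawn at 0.01. Standard replicate 1 (square) lies apart from replicates 2 and 3 in many neuronal and hypoxia genes (Dcx at 8.69 against 256 and 340.5 CPM), and the astrocyte gene Apoe lies at 4726 to 5463 CPM in the ladder libraries against 29.8 to 70.7.

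Markers of cells other than the neural lineage were low or rested on few genes. Of 10 meningeal fibroblast genes 6 were tested, 5 lower and 1 higher: Col1a1, of the collagen fibres, had 0.313, 0.557, 0.428 and 0.712 CPM against 2.06, 5.64 and 8.83, and Col1a2 had 0.117 to 0.190 CPM against 0.553, 3.32 and 5.29. Ptgds, the prostaglandin D synthase, was the higher one, with 47.4, 46.7, 63.3 and 53.0 CPM against 6.01, 15.7 and 13.9 (2.14). The sums of that list overlapped between the groups (exact permutation p = 0.457). Of 10 microglial genes only 2 were tested, and the sums were 1.20 to 1.58 against 1.60 to 2.49 unscaled CPM. Blood cell genes summed to 0.240 to 0.310 against 0.433 to 0.581.

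Among 8 tested genes of endothelial and mural cells, Flt1 (2.04) and Kdr (1.18), both receptors of VEGF, were higher, and 4 were lower. Pecam1, an adhesion molecule of endothelial cells, had 1.08, 1.05, 1.16 and 1.01 CPM against 767, 1728 and 751 (−9.97), while Cdh5, the cadherin that defines the same cells, had no count in the ladder libraries and 0, 2.26 and 4.0 CPM in the standard libraries. The leading Pecam1 transcript, Pecam1-208, shares 6.36% of its 31-base words with other genes. Of 8 ependymal and choroid plexus genes 5 were tested, of which 3 were higher, among them Foxj1, the master factor of motile cilia, with 24.4, 16.2, 31.2 and 29.1 CPM against 10.4, 5.20 and 7.03 (1.75). Kdm5d, on the Y chromosome, had 0.370, 0.462, 0.273 and 0.324 CPM against 2.37, 1.38 and 1.80 (−2.36), and Ddx3y and Eif2s3y were at or near 0 in each library, at most 0.313 CPM. The part of any such cells in the other results was not tested.

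Glycolysis genes and targets of hypoxia, which share the factor Hif1a as an inducer, were higher in 11 of 20 and lower in 1, with a median of 1.20. Without standard replicate 1 they were higher in 13 and lower in 3, with a median of 0.98. Gapdh had 5821, 5357, 4884 and 4218 CPM against 740.0, 935 and 1099.8 (2.45, SE 0.19, adjusted p = 2e-05), and Tpi1, triose phosphate isomerase, had 2702, 2910.3, 2458 and 2415 CPM against 213, 409 and 438 (2.89). Both enzymes were higher in each ladder library than in any standard library. Of the 31-base words of Gapdh 84.1% also lie in Gm7336. With that gene the sums were 6723 ± 830 unscaled CPM (SD, n = 4) against 1449 ± 302 (SD, n = 3).

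Standard replicate 1 was the lowest of all 7 libraries in several targets of hypoxia. Bnip3, a mitophagy receptor, had 197, 199, 216 and 211 CPM against 12, 106 and 94.4, Vegfa had 322, 326, 347 and 459 CPM against 27.3, 184 and 207, and the carbonic anhydrase Car9 had 7.04, 6.70, 8.69 and 8.81 CPM against 0.158, 16.7 and 34.3. None of these 3, which were chosen after their values were seen, passed the test. Hk2, the first enzyme of glycolysis, was called lower, with 36.0, 39.5, 32.8 and 41.2 CPM against 29.9, 91.6 and 87.3 (−0.90, adjusted p = 0.0489). Leaving out any single library other than standard replicate 1 brought its adjusted p to between 0.0740 and 0.181. The sums of the list were 20574 to 22326 unscaled CPM in the wild-type ladder libraries, 5986, 10173 and 11058 in the standard libraries and 7745 to 9138 in the knockout ladder libraries.

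Genes of cholesterol synthesis and uptake, which are driven together by Srebf2 when sterol is low, were lower in 13 of 20 and higher in 3, with a median of −0.70. The count was the same without standard replicate 1. Insig1, which holds the Srebf2 protein back when sterol is high and is itself its target, had 47.7, 41.7, 53.9 and 44.7 CPM against 397, 328 and 350.0 (−2.93, SE 0.13, adjusted p = 3e-06). Hmgcs1 had 31.4, 16.7, 12.4 and 20.0 CPM against 1530.0, 1091 and 956 (−5.89), but 97% of its ladder counts fell on transcripts outside the shared set. Fdps, the farnesyl diphosphate synthase, was higher, with 603, 639.9, 526 and 544 CPM against 288, 225 and 255 (1.18, and 0.09 with the length offset). Of its 31-base words 85.7% lie in other genes, mostly Gm43738, and with that gene the sums were 528 against 305 unscaled CPM. Mvd was higher too, with 142, 138, 152 and 139 CPM against 82.9, 66.1 and 87.0 (0.86, and 0.12 on the scale of log2(TPM + 1)).

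Cell cycle genes were mostly lower, where 30.3% of all genes were lower and 30.8% higher. Of 18 G1/S genes 11 were lower and 1 higher (median −0.46), and of 18 G2/M genes 12 were lower and 1 higher (median −0.78). Without standard replicate 1, 10 G1/S genes were lower and 1 higher (median −0.46), and 10 G2/M genes were lower and 2 higher (median −0.54). Ccne2, the cyclin that drives entry into S phase, had 11.2, 12, 10.1 and 12.1 CPM against 50.2, 52.3 and 43.2 (−2.10), and Cdc6, which loads the replicative helicase, had 9.56, 8.29, 9.37 and 8.90 CPM against 27.5, 31 and 28.3 (−1.68). Bub1, a kinase of the spindle checkpoint, had 8.15, 8.99, 3.29 and 10.4 CPM against 88.4, 86.3 and 68.1 (−3.39), and Aurkb, of the chromosomal passenger complex, had 37.1, 33.7, 43.2 and 42.4 CPM against 81.9, 83.9 and 75.2 (−1.04). These 4 genes were lower in all ladder libraries than in any standard library. The 2 higher genes were Gins2, of the replicative helicase, with 73.8, 74.0, 66.1 and 68.4 CPM against 52.0, 46.0 and 42.8 (0.59), and Birc5, or survivin, with 92.0, 83.9, 83.7 and 81.6 CPM against 58.3, 48.1 and 45.7 (0.75). Birc5 turned to −0.41 with the length offset.

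Genes of the response to FGF and EGF, both of which were in the medium, were lower in 5 of 14 and higher in none, with a median of −0.47. The list holds the receptors Egfr, Fgfr1 and Fgfr2 as well as induced genes. The share that was lower is near that of all genes (30.3%). In TPM, where 52.2% of all genes were lower, 13 of the 14 were lower, with a median of −1.14. The phosphatase Dusp4, which switches off ERK, had 37.3, 39.5, 40.4 and 50.4 CPM against 113, 158 and 211 (−1.94), and Spry4, a feedback inhibitor of receptor signalling, had 89.2, 100.2, 82.1 and 107 CPM against 424, 294 and 239 (−1.75). Of 20 immediate early genes 7 were higher and 6 lower (median 0.21), near the shares of all genes (30.8% and 30.3%). In TPM 3 were higher and 8 lower, with a median of −0.38. Ier3, a stress-induced survival factor, had 134, 148, 123 and 126 CPM against 40.5, 36.3 and 36.2 (1.82), and Jund had 187, 179.9, 225 and 197 CPM against 39.3, 59.9 and 72.8 (1.78). Egr1 had 88.2, 55.6, 94.6 and 110.4 CPM against 156, 253 and 197 (−1.21), without overlap.

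The counts for the integrated stress response and the chaperones were also near or below the shares of all genes. Of 19 tested genes of the stress response 7 were higher and 6 lower (median 0.36), and in TPM 3 were higher and 9 lower (median −0.34). Of its members Ddit3, or CHOP, had 77.3, 82.5, 84.4 and 79.7 CPM against 7.27, 6.46 and 6.19 (3.61, SE 0.12, adjusted p = 9.8e-07), Atf5 had 86.1, 78.2, 111 and 97.6 CPM against 19.3, 28.7 and 29.9 (1.84), and the amino acid transporter Slc7a5 was lower (−0.87). Each ladder library had more than 10 times the Ddit3 level of any standard library. Of 16 chaperone genes 4 were higher and 4 lower (median −0.13), and in TPM 2 were higher and 13 lower (median −0.96). Hspe1, the mitochondrial co-chaperonin, had 316, 361, 491 and 376 CPM against 139, 142 and 146 (1.44, and −0.09 with the length offset). Of its 31-base words 48.1% lie in other genes. Bag3, an Hsp70 partner, had 12.8, 10.5, 16.5 and 14.7 CPM against 33.4, 29.9 and 35.5 (−1.27).

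Of 16 imprinted genes, expressed from 1 parental allele, 11 were in the shared set, 6 of them lower and 1 higher. Plagl1, a zinc finger factor of the imprinted network, had 5.36, 5.04, 4.76 and 3.21 CPM against 47.7, 39.6 and 52.1 (−3.34), and Dlk1, a Notch-like ligand, was the higher one, with 13.8, 15.5, 14.9 and 13.3 CPM against 1.34, 1.19 and 1.03 (3.60). Ndn, or necdin, a growth suppressor of neurons, was among the 10 largest falls of all genes. It had 1 count in the 4 ladder libraries together and 63.0, 128 and 153 CPM in the standard libraries (−14.33, SE 0.58, adjusted p = 2e-06), and none of its 31-base words occurs in another gene.

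Of the 10 largest falls all but Phkg1 had at most 1 count over the ladder libraries. Ndst1, which modifies heparan sulfate, had 0.0142, 0, 0 and 0 CPM against 143, 128 and 146. Zfp869, a zinc finger gene, had no ladder count and 17.8, 20.5 and 18.7 CPM, which is at least 2001-fold lower against the floor of 0.00949 CPM. Chmp1b, of the membrane-cutting ESCRT machinery, had 1 ladder count and 25.3, 21.2 and 22.8 CPM. In each of these 3 the standard libraries were close together. The long-read assemblies that the study made from wild-type cells held the chain of introns of a transcript of Ndst1 and of Zfp869. Chmp1b has a single exon and can have no such chain. Ladder counts of these genes on assembled targets were not looked at, so low values on shared targets do not show that the genes were silent.

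For several of the largest falls the ladder counts lay elsewhere. Sorbs3 had no ladder count on shared targets and 10.2, 10.2 and 13.0 CPM in the standard libraries, but 99.9% of the gene's ladder counts were on transcripts outside the shared set. Clip4 had 0 against 1.90, 29.3 and 0.709 CPM, with 100% of its ladder counts outside, and without standard replicate 1 its adjusted p was 0.108. All of the 3309 31-base words of the Nnt gene with 0 ladder counts lie in a second gene record named Nnt, which had 30.7 unscaled CPM in the ladder and 19.2 in the standard libraries. In Fastkd5 64.9% of the words lie in Ubox5, which had 8.96 unscaled CPM in the ladder and 15.7 in the standard libraries. Summed, Fastkd5 and Ubox5 had 8.96 ± 0.699 (SD, n = 4) against 31.3 ± 2.35 (SD, n = 3). The ladder counts were thus not found in Ubox5. Over all tested genes, 479 had more than 20% of their ladder counts outside the shared set, of which 70 were higher and 182 lower.

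In all, 83 genes had at most 3 counts on shared targets over the ladder libraries and at least 2 CPM in the standard libraries. Of these, 42 were protein-coding, 41 were pseudogenes and 46 had a single exon. The reverse held for 56 genes, 36 of them protein-coding and 20 pseudogenes. More than 20% of the gene's ladder counts lay outside the shared set for 13 of the 83 and 1 of the 56. For those 13 genes the low ladder value holds for shared targets only. Assembled targets, which only the ladder files hold, were not assigned to genes. Whether ladder counts of any of the 83 genes lay there was not tested, and 83 and 56 are not a like comparison. An intron chain of the long-read assemblies of wild-type cells, made by the study from nanopore reads, was found for 11 of the 83 and 3 of the 56, where a gene with a single exon can have none.

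Among the 48866 transcripts tested, 11714 (24.0%) were higher in the ladder libraries and 11457 (23.4%) lower, 47.4% in either direction. The 5 largest rises had no count in the standard libraries: Rpl13a-207 had 368, 828, 1138 and 803 CPM, Cotl1-202 had 285, 224, 324 and 280.0, Dgkz-212, annotated for nonsense-mediated decay, had 189, 127, 261 and 255, and the other two were transcripts of the pseudogenes Rpl19-ps11 and Gm12895. Of the 5 largest falls, Eef1a1-208 had no ladder count and 245, 342 and 414 CPM, Apc-203 had 325, 236 and 255 CPM, Hnrnpa2b1-204 had 165, 222 and 221 CPM, and Actg1-204 had 510.2, 28.1 and 204 CPM. Rpl13a (a ribosomal protein), Eef1a1 (the elongation factor that brings tRNA to the ribosome), Actg1 (an actin) and Hnrnpa2b1 (an RNA-binding protein) are genes that every cell uses.

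The share of each transcript in its gene differed more often than not. Of 9998 genes with several shared transcripts, 5813 (58.1%) were called, and 4846 (48.5%) had at least 1 transcript with a share that differed by 10 points or more and did not overlap between the groups. Sox12, a SoxC factor of neural progenitors, has 2 shared transcripts. Sox12-201 held 99.2% ± 1.62 of the gene's counts in the ladder libraries (SD, n = 4) and 0.480% ± 0.817 in the standard libraries (SD, n = 3), and Sox12-202 held 0.809% against 99.5%. The amyloid precursor-like gene Aplp2 was led by Aplp2-209 in the ladder libraries (96.1% ± 2.21 against 0%) and by Aplp2-201 in the standard libraries (0.108% against 56.5% ± 2.64). For both Aplp2 transcripts an intron chain was found in the long reads.

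The other genes of the largest shifts behaved alike, each led by a different transcript in each protocol. Tlr3, a receptor for double-stranded RNA, had 98.8% ± 0.510 on Tlr3-201 in the ladder and 78.9% ± 6.44 on Tlr3-205 in the standard libraries. Tom1, of endosomal sorting, had 89.6% ± 5.36 on Tom1-201 in the ladder and 94.1% ± 3.93 on Tom1-202 in the standard libraries. Stox2 had 85.2% ± 2.09 on Stox2-201 against 93.4% ± 2.23 on Stox2-207, Rabgef1 had 96.7% on Rabgef1-201 against 90.7% ± 3.18 on Rabgef1-203, and C330007P06Rik had 94.0% ± 1.75 on C330007P06Rik-201 against 91.8% ± 5.14 on C330007P06Rik-202 (SD, n = 4 and n = 3). The long reads held the chain of the leading ladder transcript for Stox2 and of the leading standard transcript for Tom1, Rabgef1 and C330007P06Rik, so neither protocol's leading transcript was the one found in all of them.

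Phkg1, a subunit of phosphorylase kinase, was among the 10 largest falls and the 8 largest shifts. It had 3.39, 3.68, 3.33 and 3.06 CPM in the ladder libraries and 14092, 6289 and 7717 CPM in the standard libraries (−11.44, SE 0.38, adjusted p = 9e-07), and Phkg1-203, a retained-intron transcript, held 4.92% of it in the ladder libraries and 100% in the standard libraries. That 1 target took 1.05% ± 0.419 of all standard counts on shared targets. AW822252-203 (0.809% ± 0.268) and Stox2-207 (0.376% ± 0.130) were also among the most abundant standard targets, and each held under 0.001% of the ladder counts. Lars2-209, annotated for nonsense-mediated decay, was abundant in both protocols, at 1.04% ± 0.239 and 2.56% ± 0.551.

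By annotated class, nuclear protein-coding transcripts took 90.4% ± 0.0899 of the counts on shared targets in the ladder libraries (SD, n = 4). In the standard libraries they took 86.0% ± 1.13 (SD, n = 3). The 13 protein-coding transcripts of the mitochondrial genome, held as a class of their own, took 0.0454% ± 0.00645 against 2.12% ± 0.147. Transcripts annotated for nonsense-mediated decay took 3.39% ± 0.250 against 4.72% ± 0.547, retained introns 3.08% ± 0.0781 against 3.68% ± 0.474, and processed transcripts 1.68% ± 0.0522 against 2.38% ± 0.264. Each of these shares was on 1 side in all ladder libraries, with an adjusted p of 0.0343 in the exact permutation test. In each of the last 3 classes a single target differed by more than its class did. Lars2-209, annotated for nonsense-mediated decay, held 1.04% against 2.56%. Phkg1-203, a retained intron, held 1.52e-05% against 1.05%, and AW822252-203, a processed transcript, 0.000116% against 0.809%. The differences of these 3 classes therefore do not show a shift across the class. The share of pseudogenes, 1.36% against 1.13%, gave 0.0571.

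Fewer transcripts were detected in the ladder libraries at 1 TPM or more and, with their counts thinned, at 5 or more counts. At 1 TPM or more there were 22328 ± 722 transcripts in a ladder library (SD, n = 4) and 34760 ± 298 in a standard library (SD, n = 3). With the ladder counts thinned to the total of standard replicate 1 (11720305 on shared targets), 30872 ± 512 transcripts had 5 or more counts, against 39886 ± 1088. For genes the numbers were 13601 ± 43.4 and 14447 ± 378. Standard replicates 2 and 3 were not thinned and kept 13903106 and 13265965 counts, so the depth was equal only to that of standard replicate 1, which had 38636 transcripts and 14010 genes, against at most 31562 and 13647 in a thinned ladder library. Without thinning, 50422 transcripts and 17071 genes of a ladder library had 5 or more counts.

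Counts of the ladder libraries were placed on fewer transcripts of a gene, and more often on transcripts that the long reads held. Over 7261 genes, with the ladder counts thinned in the same way, the leading transcript held a mean of 80.2% ± 0.231 of its gene in the ladder libraries (SD, n = 4) and 76.1% ± 0.414 in the standard libraries (SD, n = 3). A gene had 1.65 ± 0.0101 against 1.78 ± 0.0175 transcripts with at least 10% of its counts. Of the counts on multi-exon transcripts, 82.6% ± 0.483 against 75.2% ± 0.697 lay on transcripts whose chain of introns was in a long-read assembly, as 15822 of the 91579 shared multi-exon transcripts were. Within the 6646 genes that have supported and unsupported transcripts the mean share was 81.9% ± 0.364 against 80.0% ± 0.534, a smaller difference. Each of these measures gave p = 0.0286 in the exact permutation test, or 0.0304 adjusted over the measures.

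**Figure D5:**
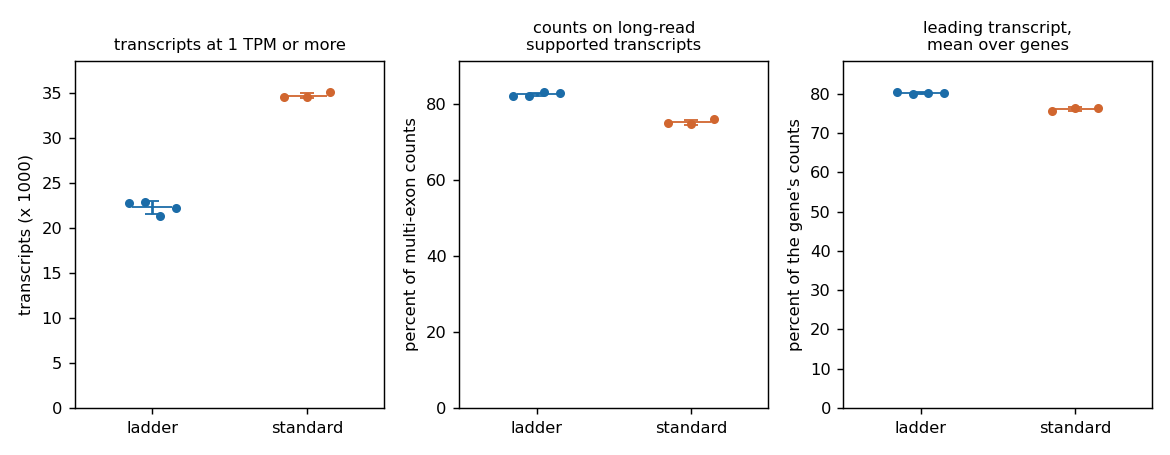
Transcripts at 1 TPM or more (left, axis in units of 1000), percent of multi-exon counts on transcripts with long-read support (middle) and mean percent of a gene's counts on its leading transcript (right); points are libraries, lines means and bars SD. The groups do not overlap in any panel: ladder libraries have fewer detected transcripts (22328 against 34760) and higher shares (82.6% against 75.2% and 80.2% against 76.1%).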

How the data were processed

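Transcripts were quantified by the authors with kallisto, per the submitters' processing notes, whose version is not stated there. The estimated counts in the deposited files are not whole numbers, and the TPM values were scaled by the authors over the targets of each file. Here TPM was rescaled over the shared targets before it was tested or used for detection. The notes also list STAR 2.5.4b, StringTie and minimap2 2.17 with the build GRCm38 (mm10). Nothing read here states how the 7 bands were combined. Long-read assemblies were used as intron chains only, matched exactly.

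Version suffixes were removed, targets listed in all 7 files were kept, and estimated counts were summed per GENCODE M21 gene and rounded. Low genes and transcripts were removed by filterByExpr and libraries scaled by TMM. The test was edgeR's quasi-likelihood test with robust dispersion (edgeR 4.0.16, R 4.3.3), 4 ladder against 3 standard libraries, with Benjamini-Hochberg adjustment and a threshold of 0.05. Usage was tested by diffSpliceDGE with the Simes method per gene. Shares and detection were tested by exact two-sided permutation over 35 splits. TPM was tested on log2(TPM + 1) in limma 3.58.1. Alternatives included DESeq2 1.42.0, other scalings and filters, length offsets (a smooth curve of log2 CPM on length per library), thinning, a replicate block and leaving out each library. Folds against a group without counts use a floor of 3 counts over the group, and intervals cover counting error only.

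Genes named are the 10 largest rises and falls among protein-coding genes (without overlap, with a regular symbol and a mean log2 CPM from 2 up), up to 2 rises and 2 falls of smallest p of each gene list, the first 2 genes of each marker list, Mettl14 and the Y-linked genes. Some genes that this rule picks are not reported here, though counts over their lists include them. Transcripts are the 5 largest of each direction, and usage genes the 8 of largest shift. Comparison, members and lists were chosen with earlier results of these data known. In data simulated for the gene comparison over 15899 genes, 15 and 14 of 50 genes changed by 1 and −1 (log2) were recovered. Of those changed by 2 and −2, 36 and 32 of 50 were recovered. There were 6 false calls among the unchanged genes. Only these sets of 50 genes were changed, a far smaller part than the 61.1% called in the data. Since the adjusted p depends on that part, the recovery and false calls do not carry over to the data. Of 10 long non-coding RNA genes listed 1 was shared (Snhg11, −0.77), and of 12 snoRNA host genes none.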

Additional observations from a re-analysis of the deposited data

Results flagged for a closer look

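Ladder libraries were looked at for 1 library that lies far from the other 3 in 147 groups of 4 values, by the gap to the nearest library as a share of the range (Dixon's ratio, at its 95% critical value). Chance alone passes that value in about 1 group of 20. Ndst1, Ndn and Chmp1b each gave 1, since a single count in ladder replicate 1, 3 and 3 stood against 0 in the other libraries. Isg15 gave 0.896, with 619 CPM in ladder replicate 3 against 492 to 505 CPM in the others, and Tubb3 gave 0.907, with 37.7 CPM in replicate 3 against 32.4 to 32.9 CPM. Slc7a5, a transporter of large neutral amino acids, gave 0.863, with 135 CPM in ladder replicate 2 against 237 to 253 CPM. Ndufv1 gave 0.858, with 269 CPM in ladder replicate 4 against 291 to 294 CPM. Ladder replicate 2 was also apart in the mean share of the leading transcript (79.9% against 80.3% to 80.4%, 0.839) and in transcripts per gene at 10% or more (1.66 against 1.64, 0.856).

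Part of the ladder counts entered no comparison. Assembled targets took 13.2% of the ladder counts (12.9% to 13.4%), and annotated targets outside the shared set took 10.4% (7.96% to 12.9%). Of the latter, ribosomal RNA targets, which the standard files lack, took 4.60% to 9.40% of the ladder counts.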

How the results depend on the processing

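Leaving out each library gave 4255 to 5561 genes higher and 4257 to 5235 lower, 8947 to 13889 transcripts higher and 9937 to 12856 lower, and 4871 to 6149 genes in the test of usage. DESeq2 called 5028 genes higher and 5384 lower. TPM moved the split of genes most: limma called 2501 higher and 8498 lower with a pseudocount of 0.1, and 2468 and 8417 with 1. Thinned ladder libraries gave 7696 transcripts higher, and a shift of 20 points or more held for 3051 genes. Replicate numbers did not pair the libraries (correlations of same-numbered libraries 0.0129, −0.0194 and 0.0615). With the replicate block 3937 genes were higher and 3584 lower, 5391 transcripts higher and 5465 lower, and 4321 genes were called for usage; Dcx then had an adjusted p of 0.149.

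The share of transcripts of 1000 to 2000 bases differed by 3.52 points in TPM (adjusted p = 0.114, exact permutation test). Over all targets of a file the bins under 300 and of 300 to 500 bases differed by 1.15 and 1.37 points (exact p = 0.0286). In log2(TPM + 1) the median differences of the bins up to 4000 bases were 1.27, 0.14, 0.52, −0.062 and −0.60. The 38 genes under 300 bases ranged from 1.74 to 3.99 when a library was left out, and the 6 coding ones had a median of 0.10. Transcripts at 0.1 TPM or more differed by −2676 (exact p = 0.0571). Without thinning the ladder libraries exceeded the standard ones by 10536 transcripts and 2624 genes with 5 or more counts (exact p = 0.0286). Hspe1 (−0.092) and Birc5 (−0.41) turned with length offsets, and Lrp1 (−0.23 and −0.22) and Mettl14 (−0.72 and −0.68) in TPM with pseudocounts of 0.1 and 1. Leaving out ribosomal RNA targets was not run, since none is shared.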

Other observations

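Hes5, Pdgfra and Grb10, members of the gene lists, were not picked by the rule for named genes and were chosen after their values were seen. Foxc1 was picked by that rule, as a meningeal marker that was called lower. Hes5, a Notch target of radial glia, had 44.6, 49.6, 41.8 and 42.4 CPM in the ladder libraries against 2.85, 4.58 and 6.96 CPM in the standard libraries (log2 difference 3.21, adjusted p = 4.17e-05). Pdgfra, the receptor that marks oligodendrocyte progenitors, had 136, 147, 121 and 96.1 CPM against 25.8, 14.5 and 8.64 (2.94, adjusted p = 0.000266). In both genes the groups were apart by more than the spread within them.

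Grb10, an imprinted adaptor of insulin and growth factor receptors, had 1.61, 1.37, 0.986 and 0.971 CPM against 19.9, 402 and 331 (−7.67, adjusted p = 0.000257). Foxc1, a factor of meningeal cells, had 0.0947 to 0.119 CPM in the ladder libraries and 39.1, 3.57 and 5.48 CPM in the standard libraries (−7.19, adjusted p = 0.000317, and −5.34 without standard replicate 1). Standard replicate 1 was the lowest standard library for Grb10 and the highest for Foxc1.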
